A study of Mus musculus with 4 samples.

Results

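The transcripts of 10 zinc finger proteins that bind insulators or chromatin loop anchors were examined in cervical motor neurons (MNs) that carry or lack *Patz1*. The 10 genes are *Patz1*, *Ctcf*, *Ctcfl*, *Maz*, *Vezf1*, *Zfp263*, *Zfp341*, *Zfp467*, *Zfp143* and *Yy1*. They were taken by symbol out of 23420 symbols in the count files, as insulator and looping zinc finger proteins of the study and others of that kind. *Zfp143* and *Yy1* are among the others. All 10 were found, and all 10 passed the filter on low counts that left 14269 genes for testing.

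RNA-seq was available for 4 libraries, 2 from wild type (WT) cells and 2 from Patz1 -/- cells, called *Patz1* KO here. Both genotypes derive from E14, a mouse embryonic stem cell (mESC) line, and both were differentiated in the same way. The cells formed embryoid bodies for 2 days and were then patterned with retinoic acid at 1 µM and smoothened agonist, an activator of Hedgehog signalling, at 0.5 µM. Total RNA was depleted of ribosomal RNA before stranded libraries were made. The KO was made with CRISPR/Cas9 and single clones were picked. The design text counts 1 KO line, and which clone it was is not given in the sources used here, so the genotype cannot be told apart from other properties of that line. The sample titles name ESCs, while the source and the cell type name MNs, and the libraries were taken as MNs. The replicates were described as biological, and the p values measure the spread between the libraries only. The tests and intervals draw much of each gene's spread from all genes together, with a prior weight of 15.67 degrees of freedom.

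CTCF binds DNA through a row of zinc fingers and halts cohesin, the ring-shaped complex that extrudes chromatin into loops, so that pairs of bound sites become loop anchors and domain borders. In MNs such borders separate active from silent *Hox* genes, and the position of the border goes with the rostral or caudal identity of the neuron. MAZ, PATZ1 and the other proteins are zinc finger factors that bind G-rich or promoter sequences, and several of them share chromatin sites with CTCF and cohesin.

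The guide listed for the KO is shown first, since it gives the place in *Patz1* that was targeted. The guide, written 5′ to 3′ with the start codon in capitals, is followed by a CGG PAM.
Patz1_sgRNA1: aaggggcagcgaccATGgag
It matched the + strand of *Patz1* at chr11:3290600-3290619 of GRCm38, and the start codon took bases 15 to 17 of the guide, counted from its 5′ end. A Cas9 break would fall after base 3290616, the last base of that codon. The site was exonic in 4 of the 12 transcripts that GENCODE M21 lists for the gene, and all 4 begin translation there. Of the other coding transcripts with an annotated start, 1 begins at 3294518 and 1 at 3298569. In the longest coding sequence, which has 687 codons, the next methionine codon in frame was codon 26. Before the first zinc finger at codon 294 there were 11 methionine codons, with the start codon itself counted. The counts are per gene, so they show the level of *Patz1* RNA and not the edit itself.

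The zinc finger patterns and how alike they are give the relations among the 10 genes. In coding sequences of GENCODE M21, *Patz1* held 7 zinc finger patterns of the C2H2 type, *Maz* 7, *Vezf1* 5, *Ctcf* 10 and *Ctcfl* 10. *Zfp467* held the most, with 12, and *Yy1* the fewest, with 4. *Zfp341* held 10, *Zfp263* 9 and *Zfp143* 7. The search asked for fixed spacings of cysteines and histidines, so these counts can differ from the described numbers of fingers. For PATZ1 the study describes fewer fingers than the patterns found here. Between the finger regions, the closest pair was *Ctcf* and *Ctcfl*, its germ line paralog, with 73.8% identity over 279 aligned residues. *Maz* and *Vezf1* followed with 65.1% over 186, and *Patz1* was 56.2% identical to *Vezf1* over 169 and 54.9% identical to *Maz* over 257. *Patz1* and *Ctcf* shared 27.1% over 266 residues, so by their fingers *Patz1*, *Maz* and *Vezf1* form 1 group of relatives and *Ctcf* and *Ctcfl* another. The alignments were local, so the lengths compared differ between pairs. By alignment score *Zfp263* and *Zfp467* (699) stood above *Maz* and *Vezf1* (629), with 46.8% identity over 297 residues. The plot of finger positions shows these arrays to scale.

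**Figure D1:**
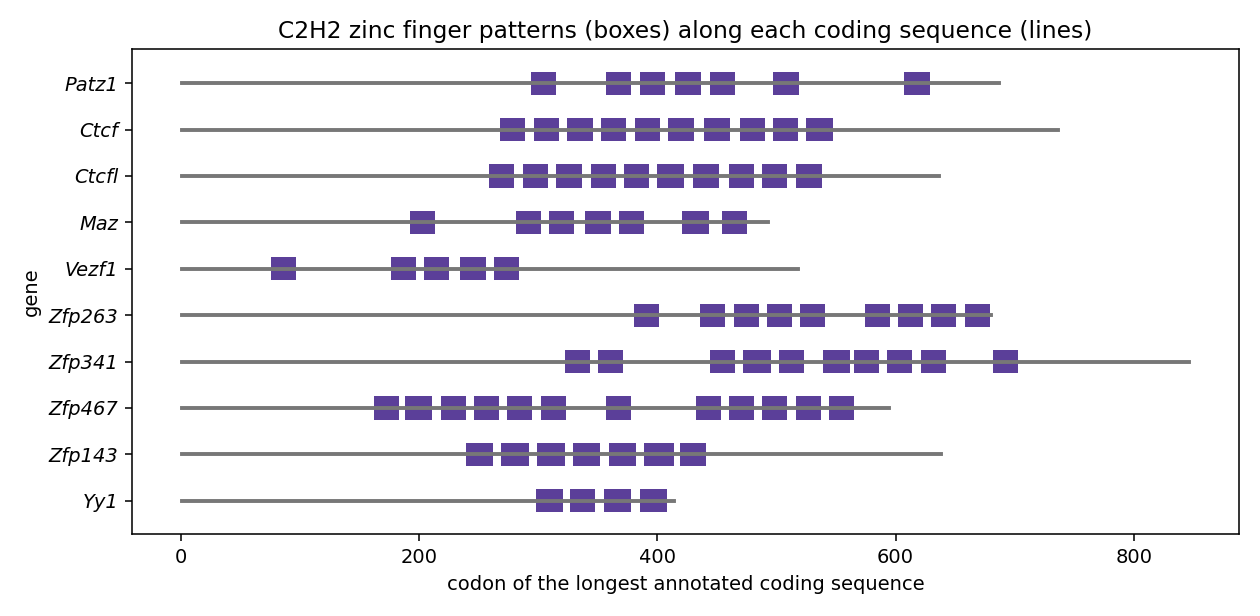
Zinc finger patterns of the C2H2 type (boxes) along the longest annotated coding sequence of each gene (lines), in codons from the start. The 7 patterns of *Patz1* begin at codon 294, *Ctcf* and *Ctcfl* have 10 in nearly the same places, and *Yy1* has 4 at its end.

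Promoter sequences are shown for *Ctcf*, whose RNA fell in the KO, and for *Maz*, whose RNA did not pass the test. Both hold the G-rich letters that MAZ is known to bind, as do promoters of some others of the 10 genes. RefSeq promoters on GRCm38.p6, which run from 250 bases before a transcript start to 50 after it, were found for 9 of the 10 genes and not for *Ctcfl*. The letters GGGAGGG were searched on both strands, so that CCCTCCC marks a match on the other strand. In the stretches below, which stop before the transcribed bases, the matches are in capitals.
Maz promoter, chr7:127027038-127027255, minus strand: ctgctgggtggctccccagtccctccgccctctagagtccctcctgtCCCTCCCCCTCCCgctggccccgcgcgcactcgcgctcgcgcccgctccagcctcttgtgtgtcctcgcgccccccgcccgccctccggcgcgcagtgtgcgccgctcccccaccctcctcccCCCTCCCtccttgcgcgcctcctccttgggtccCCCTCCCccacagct
Ctcf promoter, chr8:105636288-105636537, plus strand: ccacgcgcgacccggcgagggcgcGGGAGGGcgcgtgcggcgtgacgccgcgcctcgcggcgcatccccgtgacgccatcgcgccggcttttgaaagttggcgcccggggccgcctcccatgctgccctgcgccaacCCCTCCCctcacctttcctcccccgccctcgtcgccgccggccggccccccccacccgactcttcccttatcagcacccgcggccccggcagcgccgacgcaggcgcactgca
The *Maz* stretch held 4 matches, of which the first pair overlap by 1 base, and 76.6% of its bases were G or C. The *Ctcf* stretch held 2 matches, 1 on each strand, with 77.6% G or C. *Patz1* has 2 promoters in the table, and 1 of them held a match, shown in capitals in a window of 27 bases that is exonic in another transcript.
Patz1 window, chr11:3290260-3290286, plus strand: cctggcgggcGGGAGGGgaggtggcag
Matches were found in promoters of 5 of the 9 genes, *Patz1*, *Ctcf*, *Maz*, *Zfp263* and *Zfp467*, and in 6 of the 12 promoters. The *Zfp467* promoter held 4 and the *Zfp263* promoter 1, and the RNA of neither gene passed the test. Among all 32851 promoters of the table, 22% held one. The letters CCGCCAT, the core of a YY1 site, were searched in the same way and were found in promoters of *Ctcf* and *Maz*, after the transcript start in both, against 4.05% of all promoters. The G and C content of the promoters with and without matches was not equalized, and no match is taken for a bound site.

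The total count per library was 14769104 to 15728158 for WT and 17402342 to 23881522 for *Patz1* KO. Values are given as CPM, a gene's counts scaled to the same library size, after TMM, a method that evens out library composition. A gene was called where edgeR's quasi-likelihood test gave an adjusted p (Benjamini-Hochberg over all 14269 genes) below 0.05. By this rule 6836 genes were called, which is 47.9% of all genes, with 3444 higher (24.1%) and 3392 lower (23.8%) in the KO. The groups did not overlap in CPM for 74.2% of all genes, and the median log2 fold change of all genes was -0.0014. Both groups expressed motor neuron markers, of which 8 of 10 rose and 0 fell, with summed levels of 641.7 to 689.1 CPM in WT and 1010 to 1107 CPM in KO. Proliferation markers fell in 6 of 7 cases, from 1915 to 2019 CPM to 1124 to 1131 CPM. Endoderm markers fell in 6 of 8 cases, from 70.3 to 78.1 CPM to 12.5 to 13.3 CPM, and 6 of 8 neural crest and mesenchyme markers fell while 2 rose, with sums of 155.4 to 171.1 CPM in WT and 27.85 to 27.96 CPM in KO. Of the other lists, 3 of 7 ventral progenitor markers rose and 2 fell (801.3 to 825.2 CPM, then 624.5 to 652.8), 4 of 7 tested interneuron markers rose and 1 fell (28.5 to 30.4, then 36.6 to 38.0), and 3 of 4 tested glial markers rose and 0 fell (542.3 to 562.9, then 871.8 to 942.7). Of the tested pluripotency markers 2 of 4 fell and 0 rose (9.27 to 12.8 CPM, then 4.79 to 7.45), and of the tested endothelial and blood markers 3 of 5 fell and 1 rose (11.3 to 12.4, then 10.8 to 13.8). No marker was at 0 in all 4 libraries, and *Dppa3*, *Gata1*, *Gfap* and *Tex101*, named after their values were seen, had 3 counts or fewer in each. The ventral progenitor sum came mostly from *Nes*, with a mean of 492.4 CPM in WT and 298.4 in KO. The glial sum came mostly from *Fabp7* (445.8 and 712.1 CPM). Both genes were named after their values were seen. The part of cell composition in the results on the 10 genes was not tested.

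Of the 10 genes, 3 were lower in the KO by the test and 0 were higher. *Patz1* fell to 0.486 times its WT level, *Ctcf* to 0.728 times and *Ctcfl* to 0.478 times, the last from very few counts. These 3 calls stand beside the background of 47.9% called in either direction and 23.8% lower. The other 7 genes, *Maz*, *Vezf1*, *Zfp263*, *Zfp341*, *Zfp467*, *Zfp143* and *Yy1*, had log2 fold changes between -0.29 and 0.01 and did not pass. The groups did not overlap in CPM for 7 of the 10 genes, which lies near the 74.2% of all genes. The median log2 fold change of the 10 was -0.24. In bulk libraries like these, fewer cells of a type and less RNA per cell cannot be told apart.

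**Figure D2:**
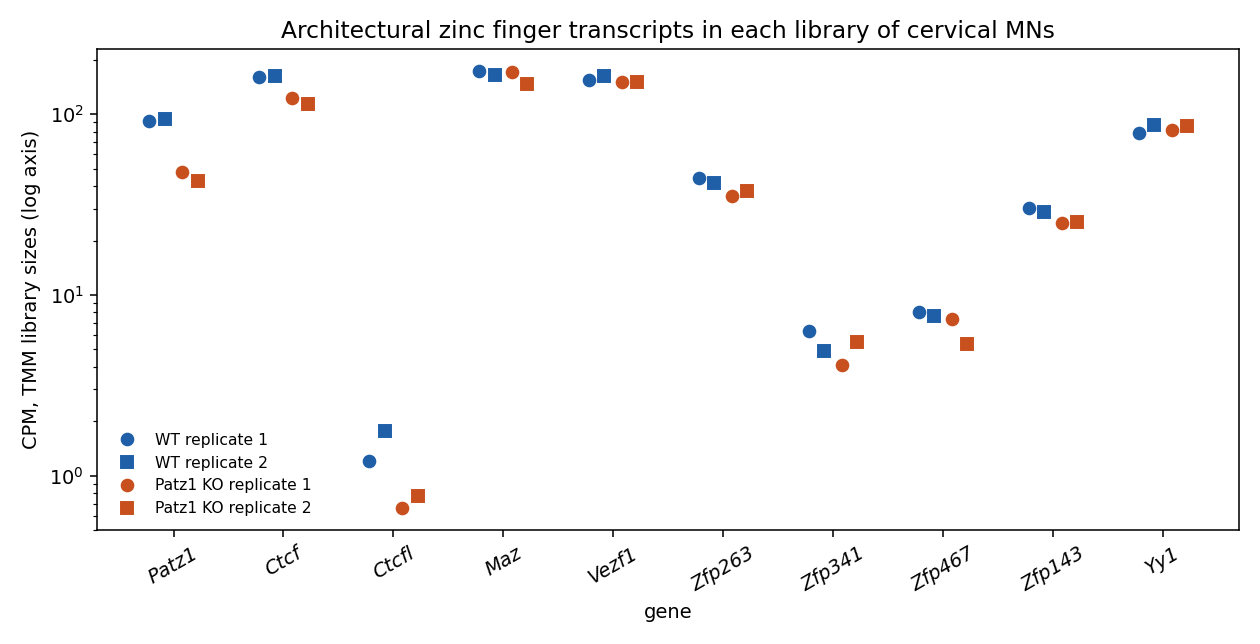
Level of each of the 10 transcripts in every library, in CPM on a log axis, with circles for replicate 1 and squares for replicate 2 of WT (blue) and *Patz1* KO (orange). The KO libraries lie well under the WT libraries for *Patz1* and *Ctcf*, while the groups overlap for *Maz*, *Zfp341* and *Yy1*.

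*Patz1* encodes a protein with a BTB/POZ domain, AT hooks and zinc fingers, and is the targeted gene. It lies at chr11:3288874-3309083 on the + strand. Its WT libraries held 1363 and 1499 counts and its KO libraries 1154 and 714, which came to 91.5 and 94.3 CPM in WT and 47.6 and 42.6 CPM in KO. Both KO libraries stood below both WT libraries, and the RNA was still well above the limit that a count of 0 allows, which is 0.124 to 0.179 CPM for 3 counts in a KO library. The mean went from 92.9 ± 1.96 CPM (SD, n = 2) to 45.1 ± 3.56 CPM (SD, n = 2), a log2 fold change of -1.04 ± 0.095 (SE) with an adjusted p of 1.10e-07 in edgeR. The 95% interval of the log2 fold change went from -1.24 to -0.84. Tested against a minimum change of 1 on the log2 scale, the call was lost with an adjusted p of 1. Other genes share exon bases with *Patz1*. The transcript *Gm11944* overlaps 88 bases on the same strand, and its counts were 53 and 38 in WT and 23 and 9 in KO, so that it fell by 1.93 on the log2 scale (edgeR adjusted p 0.000352). *Gm12592* overlaps 605 bases (10.2% of the *Patz1* exons) on the opposite strand and has no row in the files.

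*Ctcf* encodes the main insulator protein of vertebrates. It lies at chr8:105636568-105682922 on the + strand. Its counts were 2392 and 2592 in WT and 2960 and 1899 in KO, or 160.6 and 163.0 CPM in WT and 122.1 and 113.2 CPM in KO. The groups did not overlap once the depth of the libraries was taken into account. The mean went from 161.8 ± 1.72 CPM (SD, n = 2) to 117.7 ± 6.28 CPM (SD, n = 2), and the log2 fold change was -0.46 ± 0.086 (SE), with a 95% interval of -0.64 to -0.28 and an adjusted p of 0.000275 in edgeR. Without each library in turn the log2 fold change stayed between -0.51 and -0.40 and the gene was called each time. Against a minimum change of 1 on the log2 scale it was not called (adjusted p 1). The genes on chromosome 8 had a median log2 fold change of 0.15, and the 20 tested neighbours of *Ctcf* had a median of 0.29, with 8 risen and 2 fallen. *Ctcf* thus lay 0.61 below the median of its chromosome, at its 13th percentile. *Agrp* overlaps 114 bases of *Ctcf* on the other strand, with 9 and 6 counts in WT and 5 and 12 in KO, and *Gm5914*, with 370 shared bases on the other strand, has no row in the files.

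*Ctcfl*, also known as BORIS, is the paralog of *Ctcf* that is used mainly in male germ cells. Its counts were only 18 and 28 in WT and 16 and 13 in KO, or 1.21 and 1.76 CPM in WT and 0.66 and 0.78 CPM in KO. The KO libraries lay below the WT libraries, and all 4 values were several times the limit that 3 counts allow. The log2 fold change was -1.06 ± 0.41 (SE) with a 95% interval of -1.92 to -0.21 and an adjusted p of 0.0388 in edgeR. This call was lost without WT replicate 1 (-1.30, adjusted p 0.0873), without WT replicate 2 (-0.75, adjusted p 0.426) and without *Patz1* KO replicate 1 (-0.93, adjusted p 0.144). DESeq2's Wald test did not give it either (adjusted p 0.242). *Ctcfl* lies at chr2:173093609-173119525 on the minus strand. *Ctcflos* overlaps 171 of its exon bases on the other strand and has no row in the files, and 4.17% of its stretches of 50 bases also occur in genes that do not overlap it, so some of its few reads may belong elsewhere. Among markers of germ cells, 2 of 5 tested fell and 0 rose, beside 23.8% lower and 24.1% higher among all genes. Their summed level was 16.45 to 19.18 CPM in WT and 11.6 to 12.1 CPM in KO. Most of that fall lay in *Stra8*, with a mean of 5.91 CPM in WT and 0.18 in KO. *Ddx4* (3.54 and 4.35) and *Mael* (3.75 and 4.53) were higher in KO without a call. These genes were named after their values were seen. Whether the germ cell markers went together with *Ctcfl* was not tested.

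The fingers most like those of *Patz1* belong to *Maz* and *Vezf1*. *Maz* encodes the Myc-associated zinc finger protein, a factor of G-rich promoters that also shares sites with CTCF, and lies at chr7:127022130-127027037 on the minus strand. It had 172.6 and 165.0 CPM in WT and 170.6 and 147.5 CPM in KO. The groups overlapped, since replicate 1 of the KO lay between the WT libraries. The log2 fold change was -0.08 ± 0.092 (SE), with a 95% interval of -0.28 to 0.11 and an adjusted p of 0.468 in edgeR. Its sign rested on 1 library, as it was 0.02 without *Patz1* KO replicate 2 and -0.19 without *Patz1* KO replicate 1, where the gene was called with an adjusted p of 0.0455.

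*Vezf1*, a factor of blood vessel development that also binds vertebrate insulators, lies at chr11:88068279-88084729 on the + strand. It had 154.1 and 162.1 CPM in WT and 150.0 and 151.0 CPM in KO. The KO libraries lay just under the WT libraries. The log2 fold change was -0.07 ± 0.085 (SE), with a 95% interval of -0.25 to 0.11 and an adjusted p of 0.512 in edgeR. For both genes the interval leaves out a fall as large as that of *Patz1*, whose own interval ended at -0.84. *Vezf1* was not called under any of the 14 alternatives, in which its log2 fold change went from -0.11 to -0.03.

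*Zfp263*, *Zfp341* and *Zfp467* are zinc finger genes whose human counterparts the study examined beside PATZ1 at cohesin sites. For *Zfp263*, which it calls *Znf263*, the study also made KO mESCs and differentiated them into cervical MNs. It reported de-repressed *Hox* genes there. *Zfp263*, at chr16:3744093-3750790 on the + strand, had 44.1 and 41.6 CPM in WT and 35.2 and 37.4 CPM in KO. The groups did not overlap and the test was missed closely, with a log2 fold change of -0.24 ± 0.099 (SE), a 95% interval of -0.45 to -0.03 and an adjusted p of 0.0516 in edgeR. Its call was gained in 6 of the 14 alternatives, among them the fit without *Patz1* KO replicate 2 (-0.28, adjusted p 0.0156). The median log2 fold change of chromosome 16 was -0.13.

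*Zfp341*, a known activator of *Stat3* transcription, lies at chr2:154613297-154646821 on the + strand. Its counts were 94 and 78 in WT and 99 and 92 in KO, or 6.31 and 4.91 CPM in WT and 4.08 and 5.49 CPM in KO. The groups overlapped, and the log2 fold change of -0.24 ± 0.23 (SE) had an adjusted p of 0.397 in edgeR. Its 95% interval went from -0.72 to 0.23, which takes in both no change and a fall as large as that of *Ctcf*. The value was -0.05 without WT replicate 1, -0.41 without WT replicate 2, -0.024 without *Patz1* KO replicate 1 and -0.45 without *Patz1* KO replicate 2, and it was not called in any of these fits. The antisense gene *Gm14198* shares 282 of its exon bases (8.55%) and *4930519P11Rik* shares 106, both on the other strand and both without a row in the files.

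*Zfp467*, a factor known from bone and fat cell differentiation, lies at chr6:48427697-48445825 on the minus strand. WT gave 120 and 122 counts and KO 178 and 90, or 8.06 and 7.67 CPM in WT and 7.34 and 5.37 CPM in KO. The KO libraries lay below the WT libraries, and the log2 fold change was -0.29 ± 0.20 (SE) with a 95% interval of -0.70 to 0.13 and an adjusted p of 0.241 in edgeR. Without *Patz1* KO replicate 1 it was -0.55 and called (adjusted p 0.0293). Chromosome 6 as a whole went the other way. Its 697 tested genes had a median log2 fold change of 0.56, with 455 risen and 47 fallen, and the 20 tested neighbours of *Zfp467* had a median of 0.735, with 16 risen and 1 fallen. *Zfp467* thus lay 0.85 below the median of its chromosome, at its 10.1 percentile, while it stood at the 27.7 percentile of all genes. Chromosome X had a median log2 fold change of 0.247, and chromosome Y one of -1.94 over 5 tested genes, of which 4 fell and 0 rose. Whether the number of copies of chromosomes 6, 8, X or Y differed between the lines was not tested.

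**Figure D3:**
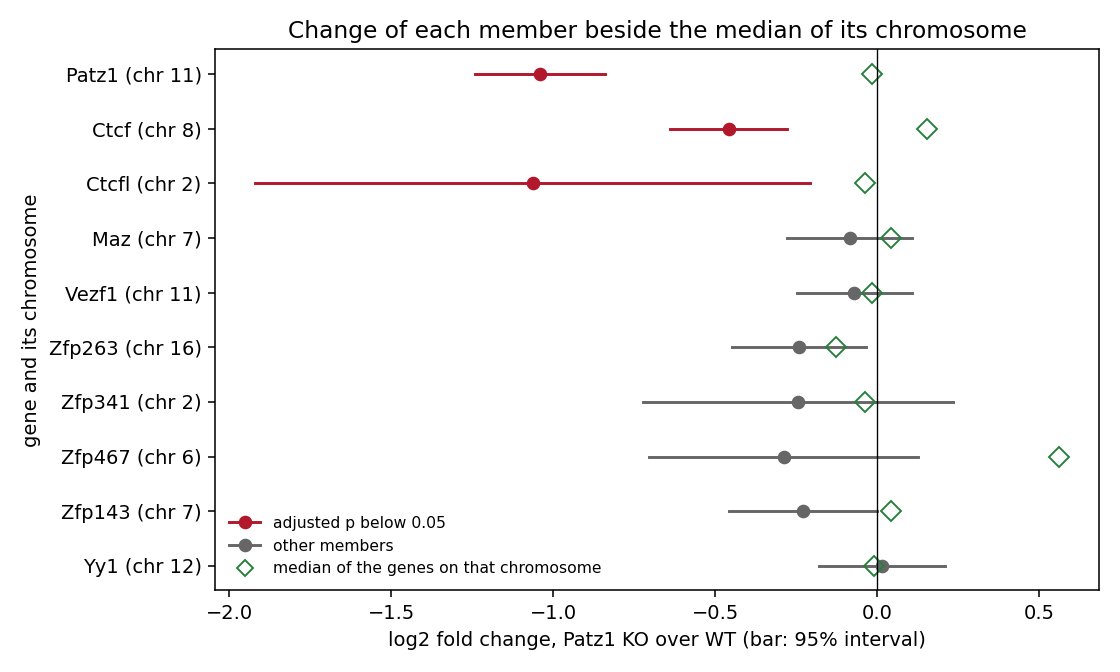
Log2 fold change of each of the 10 genes, *Patz1* KO over WT (dots, with 95% intervals as bars, red where the adjusted p was below 0.05), beside the median of all tested genes on its chromosome (green diamonds). *Ctcf* and *Zfp467* lie to the left of chromosome medians of 0.15 and 0.56, while the medians of the other genes' chromosomes lie between -0.13 and 0.04.

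*Zfp143* and *Yy1* encode factors that bind promoters and are found where promoters contact distal sites. *Zfp143*, at chr7:110061217-110095394 on the + strand, had 30.3 and 28.7 CPM in WT and 25.0 and 25.4 CPM in KO. The groups did not overlap, with a log2 fold change of -0.23 ± 0.11 (SE), a 95% interval of -0.46 to -0.0024 and an adjusted p of 0.0884 in edgeR. *AA474408* shares 109 of its exon bases on the other strand and has no row in the files.

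*Yy1*, at chr12:108792973-108820148 on the + strand, had 78.2 and 87.4 CPM in WT and 81.3 and 86.0 CPM in KO. Both KO libraries lay between the WT libraries. The log2 fold change was 0.01 ± 0.093 (SE), with a 95% interval of -0.18 to 0.21 and an adjusted p of 0.914 in edgeR, and its sign turned with library size alone as the scaling (-0.02), without WT replicate 1 (-0.06) and without *Patz1* KO replicate 2 (-0.02). Any fall of *Yy1* as large as that of *Ctcf* lies outside this interval.

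Ratios of counts within a library do not depend on the scaling between libraries. Relative to *Maz*, *Patz1* stood at 0.53 and 0.571 in WT and at 0.279 and 0.289 in KO, and *Ctcf* at 0.93 and 0.988 in WT and at 0.716 and 0.768 in KO. Both ratios were lower in each KO library than in either WT library. *Vezf1* over *Maz* was 0.893 and 0.982 in WT and 0.879 and 1.02 in KO, which overlap. *Patz1* over *Ctcf* went from 0.57 and 0.578 to 0.39 and 0.376, so *Patz1* fell relative to *Ctcf*. *Ctcf* over *Rad21*, which encodes the cohesin subunit that closes the ring, was 0.772 and 0.704 in WT and 0.662 and 0.631 in KO. For such a ratio the smallest p of an exact permutation test would be 0.333, so none was run.

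To compare the 10 genes with each other, CPM was divided by the length in kilobases of each gene's annotated exons, which gives RPKM. In WT the order of mean RPKM was *Maz* (56.7 ± 1.80), *Vezf1* (34.4 ± 1.23), *Ctcf* (33.3 ± 0.35), *Patz1* (15.7 ± 0.33), *Yy1* (12.9 ± 1.01), *Zfp263* (9.48 ± 0.39), *Zfp143* (8.48 ± 0.33), *Zfp467* (1.85 ± 0.064), *Zfp341* (1.70 ± 0.30) and *Ctcfl* (0.46 ± 0.12), each with SD and n = 2. Neighbours in this order overlapped in their WT libraries only for *Vezf1* with *Ctcf* and for *Zfp467* with *Zfp341*. In KO, *Patz1* had 7.64 ± 0.60 RPKM and stood below *Yy1* (13.0 ± 0.52) in both libraries, while *Ctcf* had 24.2 ± 1.29 and kept rank 3. The KO libraries of *Patz1* (8.06 and 7.21) overlapped those of *Zfp263* (7.78 and 8.27) and *Zfp143* (7.16 and 7.29), so its place among these 3 genes is not set. By the mean it had rank 6, and it had rank 5 in replicate 1 and rank 7 in replicate 2. Among all tested genes with a length, *Patz1* moved from the 78.2 percentile of WT levels to the 58.5 percentile of KO levels, and *Maz* stood at the 94.5 and 93.9 percentiles. Of the summed RPKM of the 10 genes, *Patz1* made up 8.99% in WT and 5.11% in KO, *Ctcf* 19% and 16.2%, and *Maz* 32.4% and 35.8%. With the length of the longest transcript in place of all exons, *Ctcf* (42.8) stood above *Vezf1* (34.5) in WT and below it in KO (31.1 and 32.8), and *Patz1* (12.2) stayed above *Zfp263* (8.69) in KO at rank 5. Of the 20 ranks in both groups, 16 were kept with these lengths, 16 without *Patz1* KO replicate 1, and 18 to 20 without each of the other libraries.

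**Figure D4:**
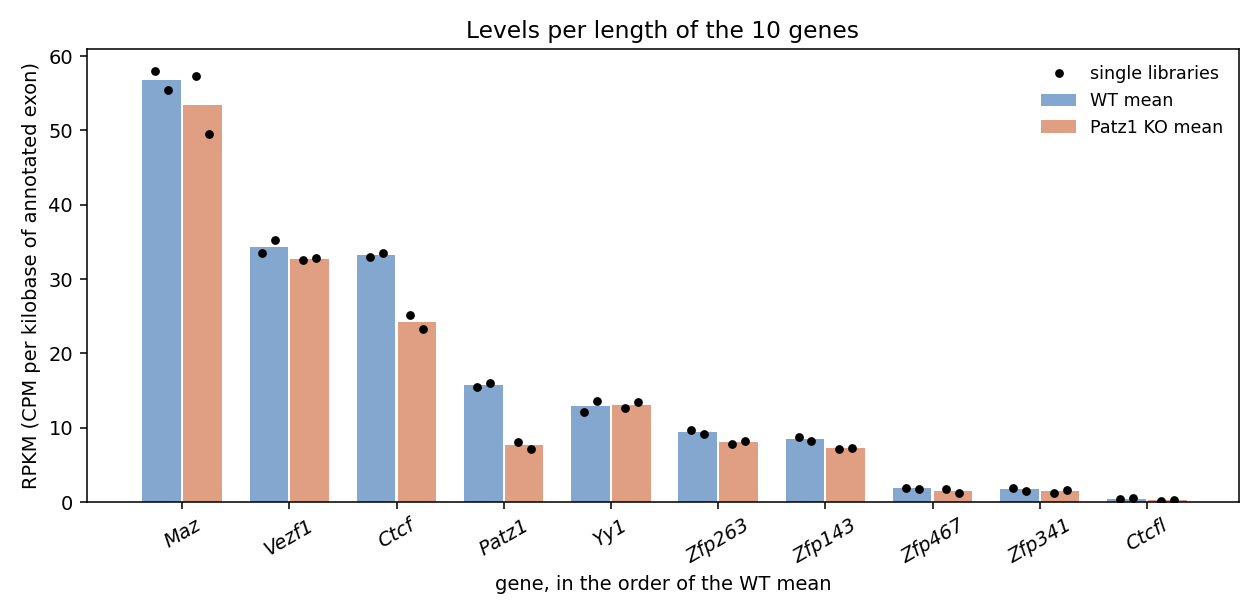
Levels per length of the 10 genes in RPKM, ordered by the WT mean, with bars for the mean of WT (blue) and *Patz1* KO (orange), which start at 0, and dots for the single libraries. *Maz* is the highest in both groups, and *Patz1* drops from 15.7 to 7.64 RPKM, below *Yy1* and into the range of *Zfp263* and *Zfp143*.

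By the distance between log2 CPM profiles over the 4 libraries, each centred on its mean, the tested genes most like *Patz1* were *Hey1* (distance 0.046 on the log2 scale), *Zfp568* (0.046) and *Gm13212* (0.047). The counts of *Hey1* were 1206 and 1318 in WT and 994 and 643 in KO, close to the pattern of *Patz1* itself, while *Gm13212* had no more than 11 in any library. The genes most like *Ctcfl* were *Nr1d2* (0.054), *Plag1* (0.066) and *Gm266* (0.069). With 4 libraries and 14269 genes such closeness is a description only.

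Cohesin is the complex that these zinc fingers meet on chromatin, and the rows of its core genes were read from the same fit. All 5 core genes were called, against the 47.9% of all genes, with 4 lower and 1 higher and a median log2 fold change of -0.27. The subunits *Stag1*, *Stag2*, *Rad21* and *Smc3* fell, by 0.51 (adjusted p 0.00012), 0.43 (0.000774), 0.27 (0.0170) and 0.26 (0.0170) on the log2 scale, and *Smc1a*, which is X-linked, rose by 0.33 (edgeR adjusted p 0.00408). *Rad21* and *Smc3* were named after their values were seen. *Stag1* went from 132.9 to 93.4 CPM and *Rad21* from 219.8 to 181.9 CPM. Fewer of the 5 were called in the fits without 1 WT library. Fewer of all genes were called in those fits too, so this is not read as a result about the 5. *Stag2*, which fell, is X-linked too, and the tested genes of chromosome X had a median log2 fold change of 0.25.

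Of 9 genes of cohesin loading, release and acetylation, 5 fell and 1 rose, with a median log2 fold change of -0.24. *Hdac8*, the X-linked SMC3 deacetylase, rose from 9.50 to 20.5 CPM (log2 fold change 1.11, edgeR adjusted p 5.39e-06). *Cdca5*, which encodes sororin, fell from 28.4 to 14.2 CPM (-0.99, adjusted p 5.73e-06), and the acetyltransferase gene *Esco2* fell from 24.3 to 14.6 CPM (-0.74, adjusted p 8.49e-05). Sororin and ESCO2 act in S phase and mitosis, and proliferation markers fell in 6 of 7 cases in the same libraries. The part of cell division in these values was not tested.

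Of 11 partners of the 10 proteins, 3 fell and 0 rose, with a median log2 fold change of -0.17. *Hcfc1*, an X-linked cofactor of ZNF143, fell from 222.6 to 150.6 CPM (-0.56, edgeR adjusted p 5.37e-05), *Npm1*, which encodes nucleophosmin, from 1156 to 703.4 CPM (-0.72, adjusted p 0.000106) and *Ino80*, a remodeller that works with YY1, from 43.1 to 30.8 CPM (-0.48, adjusted p 0.00065).

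Of 10 paralogs and other zinc fingers of G-rich sites, 4 fell and 1 rose, with a median log2 fold change of -0.13. *Sp1*, a general activator of G-rich promoters, fell from 110.0 to 77.7 CPM (-0.50, edgeR adjusted p 0.000217), *Sp3* from 160.6 to 122.2 CPM (-0.40, adjusted p 0.0016) and *Zfp148* from 122.2 to 99.4 CPM (-0.30, adjusted p 0.0107). *Sp2* also fell and *Zfp523*, a paralog of *Zfp143*, rose, both named after their values were seen. This count of 5 was 3 with DESeq2's Wald test, which called 5118 of 15805 genes. The count also changed in fits without 1 library, as did the number of all genes called.

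Of 12 other architectural proteins, 5 fell and 0 rose, with a median log2 fold change of -0.25. *Gtf3c6* and *Gtf3c4*, subunits of the general factor TFIIIC, fell from 42.3 to 30.02 CPM (-0.50, edgeR adjusted p 0.000534) and from 140.1 to 106.4 CPM (-0.40, adjusted p 0.002). *Hnrnpu*, a nuclear matrix protein, fell from 968.5 to 682.4 CPM (-0.51, adjusted p 0.000804). Fewer of the 12 were called without WT replicate 2, where fewer of all genes were called too. The lists other than the cohesin core thus had 6 of 9, 3 of 11, 5 of 10 and 5 of 12 genes called, beside 47.9% of all genes.

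**Figure D5:**
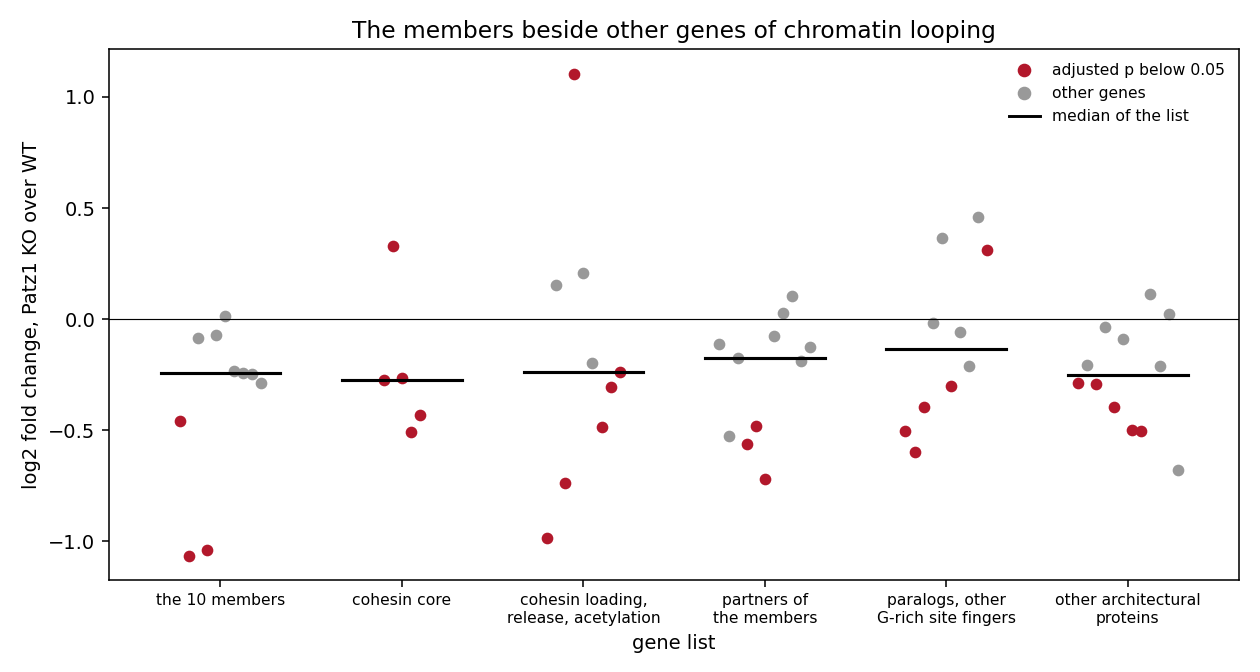
Log2 fold changes, *Patz1* KO over WT, of the 10 genes and of 5 lists of other genes of chromatin looping, with 1 dot per gene (red where the adjusted p was below 0.05) and a bar at the median of each list. The medians lie between -0.27 and -0.13, and *Hdac8* at 1.11 is the highest dot.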

How the data were processed

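The authors deposited raw counts of reads per gene symbol for 4 libraries of MNs, 2 per genotype. The submitters' processing notes name TopHat2 2.1.1, Bowtie2 2.3.1, featureCounts 1.6.2, DESeq2 and mm10, the study's methods Bowtie 2 and mm10. The annotation and strand setting of the counting are not given in the sources used here, so reads of a gene and its antisense partner may not be separated.

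Genes were filtered with filterByExpr (minimum count 10), normalized with TMM and tested with edgeR 4.0.16 (limma 3.58.1, R 4.3.3). DESeq2 1.42.0 (alpha 0.1) was an alternative. SE was the absolute log2 fold change over the root of F. The test was tested on simulated data. Replicates differed beyond sampling noise (chi-square per gene 10.4 in WT and 23.1 in KO). Positions, lengths and coding sequences came from GENCODE M21 (23074 of 23420 symbols matched), promoters from RefSeq, with Python 3.11.15, Biopython 1.88 and matplotlib 3.10.9.

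The 10 genes, the 5 pathway lists and the 10 marker lists were chosen with earlier results of these data known. Named genes were the 10, the 3 smallest p of each pathway list, the 3 most alike profiles for *Patz1* and for called genes beyond 0.5 on the log2 scale, and genes overlapping the 10. Alternatives were other scalings, filters and tests, the replicate number as a block, a minimum log2 change of 1 and leaving out each library. TMM without chromosomes 6, 8, X and Y was chosen after seeing the data. ChIP-seq, Micro-C and ESC data of the study were not analysed here.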

Additional observations from a re-analysis of the deposited data

How the results depend on the processing

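Over 14 alternatives, *Patz1* and *Ctcf* kept their direction, and both were called in 13. Tested against a minimum log2 change of 1, *Patz1* (-1.04), *Ctcf* (-0.46) and *Ctcfl* (-1.06) were not called. Under that test 718 of all 14269 genes were called, and 0 of the 10 genes. The cohesin core, the cohesin loading list, the partners, the paralogs and the other architectural proteins had 0 called each. With so small a share of all genes called, 0 in lists this short says little about them. *Ctcfl* also lost its call with no filter on low counts (-1.04, adjusted p 0.0517) and with DESeq2's Wald test (-1.05). *Zfp263* gained a call with size factors of DESeq2 (-0.2431), scaling by library size (-0.27), TMM when the 20 genes with most counts were left out (-0.2467) and at least 10 counts in every library (-0.2462). *Yy1* turned to -0.0155 with library size alone. DESeq2's Wald test called 5118 of the 15805 genes to which it gave an adjusted p. Among these were 2 of the 10 genes and 3 of the 10 paralogs and other zinc fingers of G-rich sites. With TMM set by genes outside chromosomes 6, 8, X and Y, which was chosen after the data were seen, 6896 genes were called (3855 higher and 3041 lower), and *Patz1* (-0.998), *Ctcf* (-0.42) and *Ctcfl* (-1.02) kept their calls.

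The labels do not say that replicate numbers pair the libraries, and over 14269 genes the replicate differences of the 2 groups correlated at 0.0304. With the replicate number as a block *Zfp263* was called (-0.2423, adjusted p 0.0267), and the other 9 genes stayed on their side of the threshold.

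Without each library in turn, 4521 to 7816 genes were called, 2 to 4 of the 10 genes, 2 to 5 cohesin core genes, 4 to 7 genes of cohesin loading, 3 to 4 partners, 2 to 7 paralogs and 2 to 7 other architectural proteins. The log2 fold change went from -1.12 to -0.96 for *Patz1*, -0.51 to -0.40 for *Ctcf*, -1.30 to -0.75 for *Ctcfl*, -0.19 to 0.0217 for *Maz*, -0.28 to -0.19 for *Zfp263*, -0.45 to -0.024 for *Zfp341*, -0.55 to -0.092 for *Zfp467* and -0.062 to 0.10 for *Yy1*. The group left with 1 library is assumed to vary like the other. The share of all genes called also changed from fit to fit, so nothing about the lists is read from these counts. *Ctcfl*, *Zfp341* and *Zfp467* had the fewest counts, 178 or fewer per library, and the widest intervals.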
